A study of Mus musculus with 5 samples.

Results

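Lymphoid tissue organising chemokines and lymphotoxins were read in libraries labelled as tumours of mice kept at 4 °C or at 30 °C. The set was 10 genes, chosen by name from the 54446 entries of the deposited count table, and all 10 passed the filter on low counts that left 16133 genes. Lymphotoxin, made of the products of Lta and Ltb, is carried by lymphocytes and lymphoid tissue inducer cells and binds the lymphotoxin β receptor, Ltbr, on stromal cells. In spleen and lymph nodes the stroma answers through the alternative NF-κB route with the chemokines Cxcl13, Ccl19 and Ccl21a and with adhesion molecules such as Madcam1. Cxcl13 draws B cells through Cxcr5, and Ccl19 and Ccl21a draw T cells and dendritic cells through Ccr7. Tnfsf13b encodes BAFF, a survival factor for B cells.

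Per the labels, the tumours were grown from the MC38 mouse colorectal cancer cell line in C57BL/6 mice, and RNA was sequenced from 3 tumours after 2 weeks at 30 °C and from 2 tumours after 2 weeks at 4 °C. The labels name no allele, drug, age or sex and do not say whether each library came from a separate animal, so the p-values given here measure only the spread between these libraries. The RNA came from whole tissue, in which fewer cells of a type and less RNA per cell cannot be told apart. The libraries held 16191708 to 20320525 counts on named genes. Levels are given as counts scaled to 1000000 counts on named genes (CPM), and 3 counts, the floor used here, equal 0.148 to 0.185 CPM.

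The libraries held transcripts of several tissues besides those of the label, and how much of each library was tumour was not tested. Transcripts of 18 genes of pancreatic acinar cells made up 25.5% of the counts of 30 °C replicate 2, 0.249% in 4 °C replicate 2 and at most 0.00794% in the other libraries. CPM are shares of all counts, so the CPM printed for other genes in 30 °C replicate 2 are lowered by this share. Markers of spleen were found in every library, such as the transcription factor Tlx1, needed for spleen development, at 10.5 to 30.2 CPM and the red pulp macrophage factor Spic at 52.4 to 136 CPM. Summed over 10 erythroblast markers, the level was 15902 to 42362 CPM. Summed over 10 epithelial markers, the level was 61.9, 128 and 21.4 CPM at 30 °C, and 19.4 and 92.6 CPM at 4 °C. Among them, the intestinal genes Cdx2 and Vil1 reached at most 0.458 and 0.215 CPM, and the keratin Krt8 lay between 3.17 and 59.7 CPM. Summed over 12 B cell markers, the level was 1564, 1515 and 4019 CPM in 30 °C replicates 1, 2 and 3, and 4360 and 3641 CPM in 4 °C replicates 1 and 2. Summed over 12 T cell markers, it was 369, 310.2 and 661 CPM at 30 °C, and 859 and 779 CPM at 4 °C. Thus 30 °C replicate 3 carried more lymphocyte transcripts than the other libraries of its group and overlapped the 4 °C group for the B cell sum, while the T cell sum was higher in both 4 °C libraries than in all at 30 °C.

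Sequences are shown first for the chemokine genes whose reads can be confused with those of copies, because this limits what the counts can say. Ccl19 (chromosome 4, 42754525 to 42756577, minus strand) and Ccl21a (chromosome 4, 42772860 to 42773993, minus strand; GENCODE M21 on GRCm38) lie in a cluster with near-identical copies. Transcripts of 4 other genes matched each of them at 98% identity or more over at least 300 bases. Of all 50-base stretches of the longest coding transcript, 40.88% for Ccl19 and 28.38% for Ccl21a occur in no other annotated gene, against 97.82% to 100% for the other 8 genes. The stretch of 61 coding bases below (coding bases 164 to 224) holds a substitution between Ccl21a and its copies, C194T, counted from 1 at the first base of the start codon, with the Ccl21a base first. Capitals mark the base that differs. Ccl21a lies at chr4:42773513-42773667 (minus strand) with an intron inside, and Gm10591 at chr4:42612446-42612600 (plus strand).
Ccl21a: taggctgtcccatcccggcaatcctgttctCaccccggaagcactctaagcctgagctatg
Gm10591: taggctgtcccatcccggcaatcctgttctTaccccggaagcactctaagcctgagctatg

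The other 3 copies of Ccl21a (Ccl21b, Gm13304 and Gm21541) carry the same letters as Gm10591 in this stretch. In coding sequence, each of the 4 copies differs from Ccl21a at 2 bases, T84A and C194T. The stretch shown for Ccl19 covers coding bases 181 to 241, at chr4:42754904-42755181 (minus strand) with an intron inside. It is set beside the pseudogenes Ccl19-ps3 (chr4:42133720-42133997, plus strand) and Gm12407 (chr4:41792163-41792440, minus strand), whose capitals mark C198T and G224C.
Ccl19: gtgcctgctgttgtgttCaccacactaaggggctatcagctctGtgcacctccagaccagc
Ccl19-ps3: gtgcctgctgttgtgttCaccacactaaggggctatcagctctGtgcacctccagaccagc
Gm12407: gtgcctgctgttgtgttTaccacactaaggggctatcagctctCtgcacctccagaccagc

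All 324 annotated bases of Ccl19-ps3 are found in Ccl19 without a mismatch, so a read that lies inside them cannot be assigned to either gene by its sequence. How reads that map to several genes were counted is not given in the sources used here.

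Of the genes studied, 7 of 10 had both 4 °C libraries above all 30 °C libraries in CPM, and 0 had both below. Among all 16133 genes tested, 11.0% lay higher and 5.41% lower at 4 °C without overlap. None of the 10 (0) had an adjusted p under 0.05 by edgeR's quasi-likelihood F-test (adjusted after Benjamini and Hochberg over all genes tested), and neither had any other gene (0%). At an unadjusted p under 0.05, 4 of 10 were higher at 4 °C (Cxcl13, Madcam1, Ltb and Ccr7) and 0 lower, beside 2.58% of all genes higher and 4.17% lower. That count was 3, 3 and 6 without 30 °C replicates 1, 2 and 3. Of all genes in these fits, 342 of 15838, 168 of 16026 and 583 of 15786 were higher at this threshold. With 1 cold library left, the 10 genes' median log2 fold change was 0.88 without 4 °C replicate 1 or 0.80 without replicate 2. The Wald test of DESeq2 called 1 of the 10, Cxcl13, beside 0.891% of the genes it could adjust. The median log2 fold change of the 10 genes (4 °C against 30 °C) was 0.82, and that of all genes was 0.01, with 10 of 10 genes and 50.7% of all genes above 0. Scaling by library totals alone moved the median of all genes to 0.11 on the log2 scale, an offset that the CPM values printed here also carry, and the median of the 10 genes to 0.91.

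**Figure D1:**
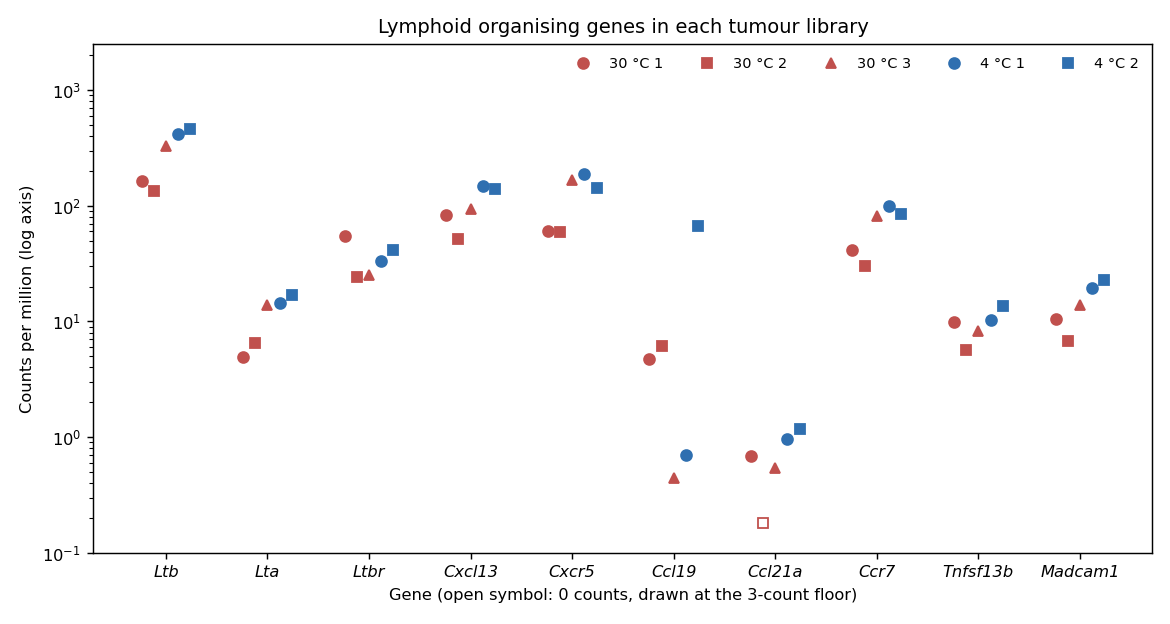
Level of each of the 10 genes in each library in CPM (log axis), with red symbols for the 3 libraries at 30 °C and blue symbols for the 2 at 4 °C, and an open symbol for 0 counts drawn at the floor. The third 30 °C library lies near the 4 °C libraries for Ltb, Lta, Cxcr5 and Ccr7, and Ccl19 is spread from 0.443 to 67.1 CPM.

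Levels per kilobase of exon, which allow genes to be compared, ran from the lymphotoxin subunit Ltb to the chemokine Ccl21a. Mean CPM per kilobase over the 5 libraries was 198 ± 96.3 (SD, n = 5) for Ltb and 89.6 ± 35.4 for Cxcl13, and these ranked first and second in all 5 libraries. Cxcr5 at 37.0 ± 18.0 and Ccr7 at 34.1 ± 15.2 CPM per kilobase did not differ beyond their spread. Ccl19 followed with a mean of 18.2 ± 33.2, which its SD exceeds, then Ltbr with 15.1 ± 5.30, Madcam1 with 10.3 ± 4.53 and Lta with 8.23 ± 3.84 CPM per kilobase. Tnfsf13b, at 1.39 ± 0.430, and Ccl21a, at 0.774 ± 0.516 CPM per kilobase, came last. The levels of Ccl19 and Ccl21a leave out the counts on their near-identical copies, so their places in this order are uncertain. Ccl19 exceeded Ltbr in 1 of 5 libraries, Ltbr exceeded Madcam1 in 5 of 5, and Madcam1 exceeded Lta in 4 of 5 without differing from it beyond the spread.

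Among the chemokine ligands, the B cell attractant Cxcl13 (chromosome 5, 95956951 to 95961068) had the smallest p of the 10 genes. It measured 82.3, 51.2 and 93.5 CPM at 30 °C, and 148 and 140.4 CPM at 4 °C. The groups did not overlap, and the means were 75.7 ± 21.9 (SD, n = 3) and 144 ± 5.36 CPM (SD, n = 2). With acinar genes left out of the total, 30 °C replicate 2 measured 68.7 CPM and the 30 °C mean was 81.5 ± 12.4 (SD). Its log2 fold change was 0.84 ± 0.16 (SE, adjusted p = 0.689 by edgeR's quasi-likelihood test with Benjamini-Hochberg adjustment). The Wald test of DESeq2 gave a log2 fold change of 0.83 and an adjusted p of 0.00605, and over all edgeR alternatives and DESeq2 the log2 fold change lay between 0.76 and 0.93, with adjusted p from 0.00605 to 0.99996.

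Ccl19, the T zone chemokine, was decided by a single library. It measured 4.69, 6.17 and 0.443 CPM at 30 °C, and 0.698 and 67.1 CPM at 4 °C, from 82, 102, 9, 13 and 1086 counts. The first 4 °C library thus lay below 30 °C replicates 1 and 2, while the second lay above all. The log2 fold change of 2.94 ± 1.98 (SE) did not pass the test and turned to -2.76 without 4 °C replicate 2.

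The copies of Ccl19 took another share of the reads in each library. Ccl19-ps3 had 146, 14 and 149 counts at 30 °C and 288 and 28 counts at 4 °C, so that it was lowest in 30 °C replicate 2 and 4 °C replicate 2, where Ccl19 itself was highest. Of all counts on Ccl19 and its 4 copies, Ccl19 held 31.1%, 67.5% and 3.83% at 30 °C, and 3.16% and 91.4% at 4 °C. The libraries with the highest Ccl19 share, 30 °C replicate 2 and 4 °C replicate 2, also carried the most acinar transcripts, and the part of this in the result was not tested. Summed over the 5 genes, the level was 15.1, 9.13 and 11.6 CPM at 30 °C, and 22.1 and 73.4 CPM at 4 °C. The sums did not overlap between the groups, with a log2 fold change of 1.90 ± 0.49 (SE, adjusted p = 0.687 by edgeR).

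**Figure D2:**
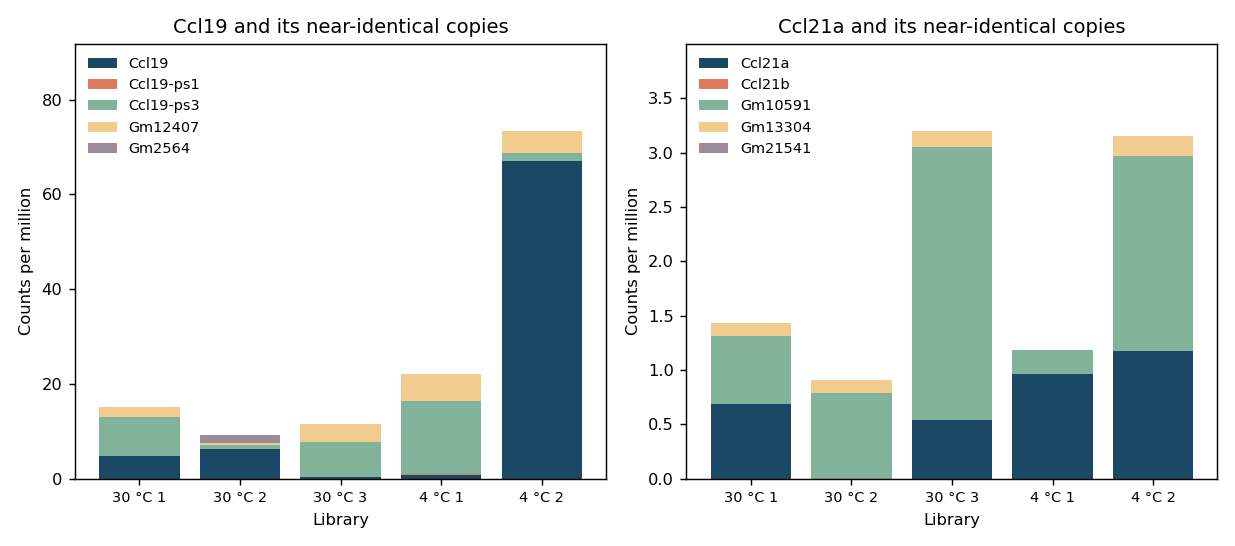
CPM of Ccl19 (left) and Ccl21a (right) in each library, stacked on the CPM of their near-identical copies, on axes that start at 0. The Ccl19 share of its stack runs from 3.16% to 91.4%, and most of the Ccl21a stack of 30 °C replicate 3 is Gm10591.

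Ccl21a, a ligand of the same receptor made by stromal cells and lymphatic vessels, was near the floor. It measured 0.686, 0 and 0.541 CPM at 30 °C, and 0.967 and 1.17 CPM at 4 °C, from 12, 0, 11, 18 and 19 counts. The 95% Wilson interval of 30 °C replicate 1 (0.393 to 1.20 CPM) covered both 4 °C values, and that of 30 °C replicate 2, with 0 counts, reached up to 0.232 CPM. Its log2 fold change was 1.34 ± 0.89 (SE). With its 4 copies added, the level was 1.43, 0.907 and 3.20 CPM at 30 °C, and 1.18 and 3.15 CPM at 4 °C, and the log2 fold change was 0.18 ± 0.61 (SE). The separation of the groups seen for Ccl21a was thus not found in the sum. Of 5 markers of lymphatic endothelium, which summed to 29.6 to 56.8 CPM, Lyve1 lay at 0.443 to 3.57 CPM, Pdpn at 0.343 to 2.29, Prox1 at 4.75 to 10.7, Reln at 8.41 to 19.8 and Flt4 at 13.0 to 26.7 CPM. Both Ccl19 and Ccl21a also lie under an antisense gene, 4930578G10Rik, and whether counting used strand is not stated.

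Of the chemokine receptors, Ccr7 guides naive T cells, B cells and mature dendritic cells. It measured 41.3, 30.3 and 82.2 CPM at 30 °C, and 99.6 and 84.3 CPM at 4 °C. The groups did not overlap, but the 95% Wilson interval of 30 °C replicate 3 (78.3 to 86.2 CPM) held the value of 4 °C replicate 2. The log2 fold change was 0.77 ± 0.30 (SE, adjusted p = 0.722 by edgeR).

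Cxcr5, the receptor of follicular B cells and follicular helper T cells, overlapped between groups. It measured 60.0, 59.8 and 167 CPM at 30 °C, and 187 and 143 CPM at 4 °C. Here 30 °C replicate 3 lay above 4 °C replicate 2. The log2 fold change of 0.72 ± 0.40 (SE) did not pass the test. Cxcr5 shares 110 bases with the antisense gene Bcl9l.

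Ltb (chromosome 17, 35194439 to 35196320) encodes the membrane anchor of the lymphotoxin heterotrimer. It measured 165, 134 and 329 CPM at 30 °C, and 417 and 457 CPM at 4 °C. The groups did not overlap, with 30 °C replicate 3 nearest to the cold libraries, and the means were 209 ± 105 (SD, n = 3) and 437 ± 27.8 CPM (SD, n = 2). Its log2 fold change was 0.99 ± 0.29 (SE, adjusted p = 0.689 by edgeR).

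Lta, its soluble partner from the same gene cluster (chromosome 17, 35203165 to 35205351), lay at a lower level. It measured 4.92, 6.53 and 13.98 CPM at 30 °C, and 14.6 and 16.9 CPM at 4 °C. The 95% Wilson interval of 30 °C replicate 3, 12.4 to 15.7 CPM, overlapped that of 4 °C replicate 1, 12.9 to 16.4 CPM, so the gap between the groups was within counting error. The log2 fold change was 0.79 ± 0.41 (SE). Tnf, the inflammatory cytokine encoded between Lta and Ltb, showed another order, with 8.75, 1.63 and 3.05 CPM at 30 °C and 3.49 and 4.88 CPM at 4 °C, and a log2 fold change of -0.14 ± 0.62 (SE).

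Ltbr, which receives the signal on stromal and myeloid cells, did not separate the groups. It measured 54.3, 24.4 and 25.1 CPM at 30 °C, and 33.3 and 41.3 CPM at 4 °C. The highest and the lowest libraries were both at 30 °C. The log2 fold change was 0.0045 ± 0.35 (SE), and its sign was negative with 9 of the 15 other fits, between -0.26 and 0.36.

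Tnfsf13b, the BAFF gene, measured 9.95, 5.62 and 8.32 CPM at 30 °C, and 10.3 and 13.7 CPM at 4 °C. It shares 3101 bases with the antisense gene Gm44789, and whether counting used strand is not stated. The groups did not overlap, yet the 95% Wilson interval of 30 °C replicate 1 (8.58 to 11.5 CPM) held the value of 4 °C replicate 1. The log2 fold change of 0.49 ± 0.26 (SE) did not pass the test. Of its B cell receptors, Tnfrsf13c, the BAFF receptor, measured 59.4, 47.6 and 144 CPM at 30 °C, and 154 and 125 CPM at 4 °C, and overlapped between groups. Tnfrsf13b had a log2 fold change of 0.41 ± 0.32, and Tnfrsf17, the receptor of plasma cells, 0.39 ± 0.47 (SE) at 1.49 to 4.14 CPM. The related ligand Tnfsf13 (APRIL) measured 4.23 to 9.72 CPM at 30 °C and 5.96 to 6.05 CPM at 4 °C.

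Madcam1 (chromosome 10, 79664559 to 79668537) encodes the mucosal addressin, which binds integrin α4β7 and in spleen marks cells that line the marginal sinus. It measured 10.5, 6.83 and 13.9 CPM at 30 °C, and 19.6 and 22.8 CPM at 4 °C. The groups did not overlap. The gap from 13.9 to 19.6 CPM exceeded the range of the cold group but not that of the 30 °C group, from 6.83 to 13.9 CPM. The log2 fold change was 0.94 ± 0.23 (SE, adjusted p = 0.689 by edgeR). Of the integrin subunits that bind it, Itgb7 had a log2 fold change of 0.54 ± 0.20 (SE) and Itga4 of -0.55 ± 0.41 (SE). Glycam1 and Chst4, genes of the high endothelial venules of lymph nodes, were at or under the floor in every library, at no more than 0.148 and 0.0605 CPM.

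**Figure D3:**
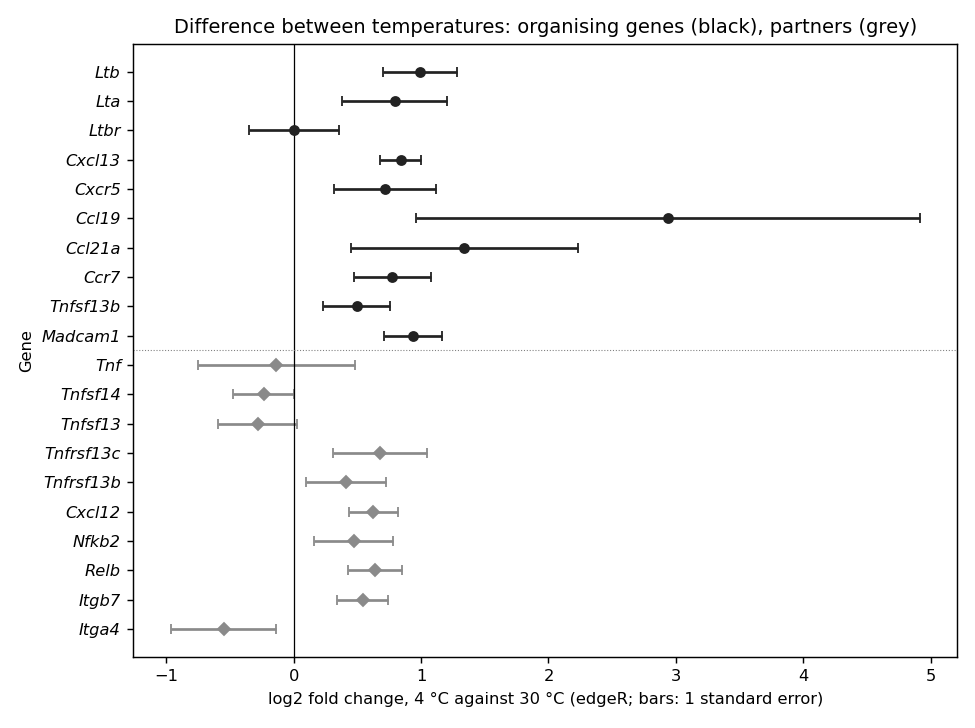
Log2 fold change between 4 °C and 30 °C from edgeR with 1 standard error, for the 10 genes (black circles) and 10 of their partners (grey diamonds). Cxcl13, Ltb, Madcam1 and Ccr7 lie above 0 by more than 2 standard errors, as do the partners Relb, Cxcl12 and Itgb7. Ccl19 has the widest error at 1.98, and Ltbr lies at 0.0045.

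Promoter sequence was searched for a κB-type motif on both strands (GGG, then any 2 bases, then TTTCC), because NF-κB acts on this pathway. The motif was chosen with the values of these genes known. RefSeq (GRCm38.p6) gave a promoter window of 300 bases for 8 of the 10 genes, not including Ccr7 and Cxcr5. The motif occurred in the windows of Ltb and Madcam1 and not in those of Cxcl13, which had the smallest p, Ccl19, Ccl21a, Lta, Ltbr or Tnfsf13b. Of all 32851 windows, 1.63% held it. The matches begin at base -87 from the RefSeq start site in Ltb and at bases -83 and -70 in Madcam1, and all 3 read on the minus strand. For Ltb, the bases before the RefSeq start site run to 35194506, past the GENCODE gene start at 35194439. The Ltb match therefore lies nearer to the GENCODE start than -87 states. The stretches before and through the matches are printed for Ltb (chr17:35194300-35194437, plus strand) and Madcam1 (chr10:79664356-79664506, plus strand), with matches in capitals.
Ltb: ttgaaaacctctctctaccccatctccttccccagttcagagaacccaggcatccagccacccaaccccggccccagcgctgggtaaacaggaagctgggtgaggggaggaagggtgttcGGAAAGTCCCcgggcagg
Madcam1: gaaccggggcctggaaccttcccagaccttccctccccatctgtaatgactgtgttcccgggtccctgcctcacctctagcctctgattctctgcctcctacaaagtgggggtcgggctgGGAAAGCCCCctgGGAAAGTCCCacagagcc

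These are matches of letters, and no binding was measured. Relb, the alternative NF-κB subunit, measured 50.9, 37.1 and 77.9 CPM at 30 °C, and 95.3 and 87.4 CPM at 4 °C. Its log2 fold change was 0.64 ± 0.21 (SE, adjusted p = 0.699 by edgeR). Nfkb2, its partner, had a log2 fold change of 0.47 ± 0.31 (SE) and Map3k14, the kinase NIK that starts this route, 0.41 ± 0.32 (SE).

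The other genes of the pathway were read from 6 lists, of which 69 genes were tested. None passed with edgeR, DESeq2 called 2 (Des and Mfge8), and 12 had an unadjusted p under 0.05 in edgeR, 10 higher and 2 lower at 4 °C, beside the 2.58% and 4.17% of all genes and the 0.891% called by DESeq2 given above. That count was 10, 5 and 16 without 30 °C replicates 1, 2 and 3, beside 913 of 15838, 520 of 16026 and 1477 of 15786 genes. The median log2 fold change of the 69 genes was 0.31. It was 0.11 without 4 °C replicate 1 and 0.36 without 4 °C replicate 2. Among 16 stromal organisers, 4 were higher at an unadjusted p under 0.05. The muscle and reticular cell filament gene Des led with 1.07 ± 0.19 (SE), followed by Mfge8 of follicular dendritic cells with 0.93 ± 0.23 (SE). Tlx1 had a log2 fold change of 0.75 ± 0.19 (SE) and Nkx2-3, a homeobox gene of spleen and gut vessels, 0.49 ± 0.21 (SE). Cr2, a complement receptor of B cells and follicular dendritic cells, ranged from 95.3 to 497 CPM, with a log2 fold change of 0.48 ± 0.68 (SE). The survival cytokine Il7 had 0.45 ± 0.30 (SE), and Pdpn, a marker of reticular and lymphatic cells, 0.64 ± 0.96 (SE).

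Of 9 tested homing chemokines and receptors, 8 had a log2 fold change above 0 and 2 an unadjusted p under 0.05. Cxcl12, a stromal chemokine, had 0.62 ± 0.19 (SE), and Gpr183, an oxysterol receptor that positions B cells, 0.80 ± 0.32 (SE). Cxcr4, the receptor of Cxcl12, had 0.32 ± 0.29 (SE). The scavenging receptors Ackr3 and Ackr4, of which Ackr4 takes up the Ccr7 ligands, had 0.38 ± 0.21 and 0.40 ± 0.52 (SE). Ccl21b had 0 counts in every library, and Ccl21c had no row under that symbol. Among 15 NF-κB signalling genes, 13 lay above 0, with Relb and Traf5 (0.63 ± 0.25, SE) at an unadjusted p under 0.05.

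By contrast, the 12 partners from the TNF family were centred near 0, with a median of -0.14, 5 above and 7 below. Tnfrsf14, which shares the ligand Tnfsf14 (LIGHT) with Ltbr, had the smallest p, at a log2 fold change of -0.89 ± 0.34 (SE). Tnfrsf11b, the decoy receptor osteoprotegerin, had 1.06 ± 0.48 (SE), and Tnfsf14 had -0.24 ± 0.24 (SE). The 10 adhesion genes tested split 5 above and 5 below 0. Of 7 lymphoid tissue inducer and interleukin-7 receptor genes, Il2rg had 0.63 ± 0.21 (SE) and Kit -0.65 ± 0.23 (SE). The cytokine genes Il22 and Il17a had 0 counts in 4 libraries and were at or under the floor in the other.

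Within a library, the ratio of a ligand to its receptor does not depend on how libraries are scaled. For 7 ligand and receptor pairs, log2 ratios of counts (0.5 added to each) were compared by an exact two-sided permutation test, which with 3 against 2 libraries cannot give a p under 0.2. Only the ratio of Madcam1 to Itgb7 separated the groups, at -3.23, -3.23 and -3.30 at 30 °C, and -3.06 and -2.68 at 4 °C (exact permutation p = 0.2, adjusted p = 0.933 over the 7 pairs). The difference of its means was 0.38 on the log2 scale, and it was 0.57 without 4 °C replicate 1 and 0.19 without 4 °C replicate 2. Cxcl13 to Cxcr5 was 0.46, -0.22 and -0.83 at 30 °C, and -0.34 and -0.03 at 4 °C, so the cold values lay inside the range at 30 °C, with a difference of means of 0.02.

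The ratio of Ltb to Ltbr was 1.60, 2.45 and 3.71 at 30 °C, and 3.65 and 3.47 at 4 °C. Lta to Ltbr was -3.46, -1.89 and -0.84 at 30 °C, and -1.19 and -1.28 at 4 °C. Both had 30 °C replicate 3 above the cold libraries. Tnfsf13b to Tnfrsf13c was -2.57, -3.07 and -4.11 at 30 °C, and -3.90 and -3.19 at 4 °C, and overlapped between groups. Ccl19 to Ccr7 spanned 7.13 and Ccl21a to Ccr7 4.12 log2 units over the 5 libraries, and neither separated the groups. The number of pairs that did was 2 without 30 °C replicate 1 or without 4 °C replicate 1, and 4 without 30 °C replicate 3.

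**Figure D4:**
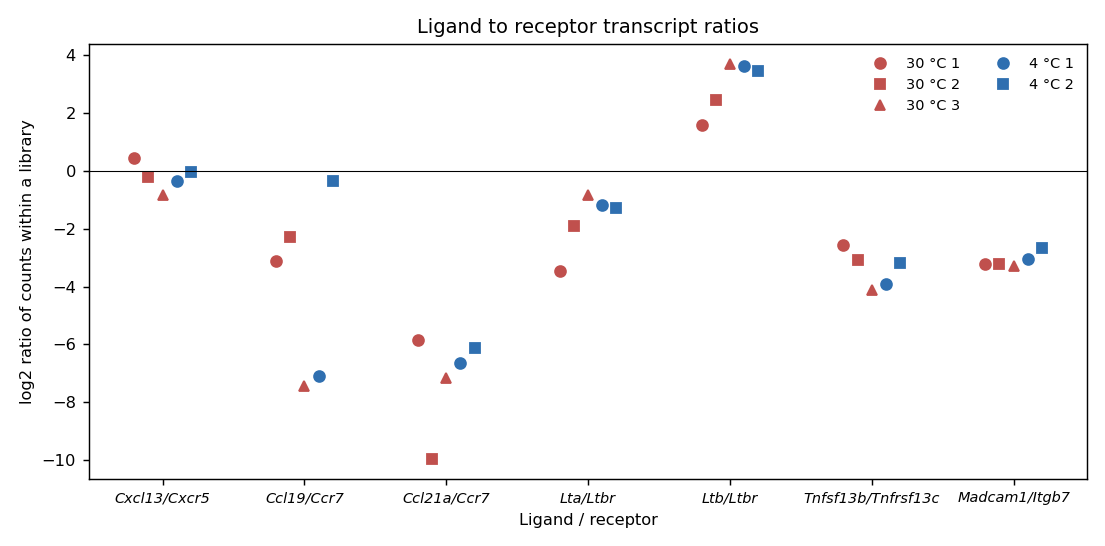
Log2 ratio of ligand to receptor counts within each library for the 7 pairs, with red symbols at 30 °C and blue symbols at 4 °C. Only Madcam1 to Itgb7 has both cold libraries outside the range at 30 °C, and the widest spread, 7.13 log2 units, is that of Ccl19 to Ccr7.

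As lymphocyte transcripts differed between libraries, each gene was also expressed relative to the mean log2 CPM of the 12 B cell markers in the same library. The mean of these markers was itself 0.86 higher at 4 °C on the log2 scale, with overlap. On this scale Cxcr5 held nearly 1 value, from -0.79 to -0.62 over the 5 libraries. Its range of 0.17 log2 units compares with 1.65 in log2 CPM. On it both cold libraries lay above all 30 °C libraries for Cxcr5, with a difference of means of 0.10.

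Ccr7 narrowed from a range of 1.71 in log2 CPM to 0.41, Lta from 1.76 to 0.63 and Ltb from 1.77 to 0.70 log2 units. TMM scaling without the markers gave ranges of 1.26 for Ccr7, 1.82 for Lta and 1.53 for Ltb. In these 3 genes the groups overlapped relative to the B cell markers, with differences of means of 0.11, 0.16 and 0.32. Madcam1, expressed by stromal cells, went from 1.72 (1.24 after TMM scaling) to 0.96 and overlapped, with a difference of 0.21. Cxcl13 went from 1.53 in log2 CPM to 1.18, above its range of 0.98 after TMM scaling. Its difference of means was 0.12, without TMM. The edgeR log2 fold change was 0.93 by library totals and 0.84 after TMM.

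The range widened for Ltbr, from 1.15 to 2.47, for Tnfsf13b, from 1.27 to 1.62, and for Ccl19. Relative to the B cell markers, Ltbr and Tnfsf13b were lower at 4 °C on average, by -0.65 and -0.25. In all, 7 of 10 genes had a narrower range than in log2 CPM and 6 than in TMM-scaled log2 CPM. The share of all genes that narrowed was not computed, so these counts do not set the 10 genes apart. Subtracting the marker mean also removes, for any gene, the lowering of CPM in 30 °C replicate 2 by its acinar counts. The median difference between temperatures was 0.14 relative to the B cell markers. It is a difference of means of log2 CPM without TMM, so it is not directly comparable to the edgeR median of 0.82. By library totals without TMM, the edgeR median was 0.91. What part the lymphocyte content had in the differences between 4 °C and 30 °C was not tested. In these libraries 12 of 12 T cell markers and 12 of 12 B cell markers also had a log2 fold change above 0, with medians of 0.79 and 0.70. Of the T cell markers, 9 of 12 lay higher at 4 °C without overlap and 9 of 12 had an unadjusted p under 0.05, and of the B cell markers 4 and 4 of 12. Of 8 markers of splenic mesenchyme and red pulp, 7 were above 0 and 4 lay higher without overlap, with a median of 0.40. The 10 dendritic cell markers had a median of 0.37. All 7 epithelial markers tested were below 0, with a median of -1.10 and 0 at an unadjusted p under 0.05. Their list sum overlapped between the groups. It was highest, at 128 CPM, in the acinar-rich 30 °C replicate 2, and 4 °C replicate 2, at 92.6 CPM, exceeded 30 °C replicates 1 and 3.

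**Figure D5:**
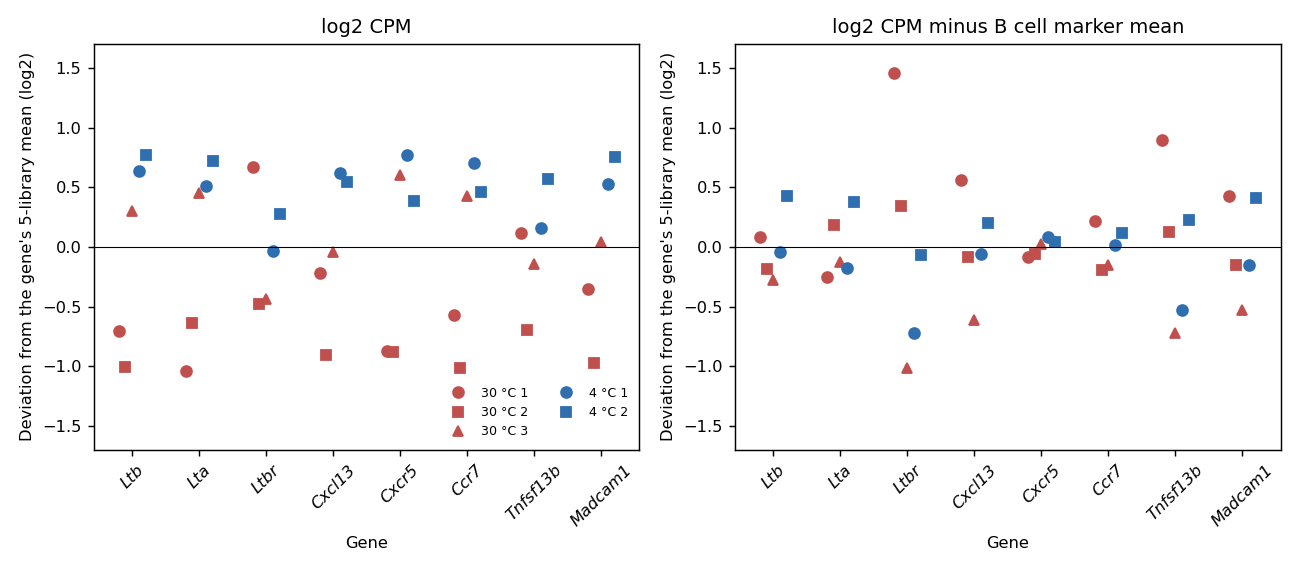
Deviation of 8 genes from their mean over the 5 libraries, in log2 CPM (left) and after subtracting the mean log2 CPM of 12 B cell markers (right), with red symbols at 30 °C and blue symbols at 4 °C. Cxcr5 closes to a range of 0.17 log2 units and Ltbr opens to 2.47.

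For the 3 genes with the widest range over libraries in TMM-scaled log2 CPM, the expressed genes with the most similar pattern were found by the root mean square (RMS) difference of centred log2 CPM over the 5 libraries. Lta was matched by the immunoglobulin light chain gene Iglc2 (RMS 0.07), Srpk3 (0.09) and Klrd1 (0.12), the last a receptor subunit of natural killer cells. Ccl19 had no close match, with Krt8 (1.19), Spp1 (1.496) and Serpinf1 (1.56) nearest. For Ccl21a, with few counts, the heat shock genes Hspa1a (0.36) and Hspa1b (0.39) and the growth factor gene Clec11a (0.59) came nearest. With 5 libraries such likeness is a description only.

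Leaving out 30 °C replicate 2 and 4 °C replicate 2, the libraries rich in acinar transcripts, left 2 libraries against 1. Then 0 of the 10 genes had an unadjusted p under 0.05 in edgeR, where 77 of 16825 genes were higher and 164 lower at this threshold, and the median log2 fold change was 0.68. With the acinar genes removed from the counts, 7 of 10 genes lay higher at 4 °C without overlap (10.1% of all genes). In the edgeR fit without acinar genes, 4 of the 10 were higher at an unadjusted p under 0.05, beside 399 of 16145 genes higher and 710 lower. The median log2 fold change in that fit was 0.80 for the 10 genes and -0.01 for all genes. After TMM scaling 7 of 10 genes also lay higher at 4 °C without overlap (12.2% of all genes). Of the 10 genes, 8 were lowest in 30 °C replicate 2 in CPM and 3 in TMM-scaled log2 CPM.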

How the data were processed

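RNA-seq libraries of 5 samples labelled as tumour were compared, 3 at 30 °C and 2 at 4 °C, grouped by their titles. The deposited values are raw counts per gene symbol, which the authors obtained with featureCounts on the Gencode vM19 annotation of GRCm38. The submitters' processing notes also name fastp, HISAT and RSEM. Strand setting and the treatment of reads mapping to several genes are not given in the sources used here. Unnamed entries (0.0101% to 0.0170% of counts) were left out, and of repeated symbols the entry with the highest mean was used.

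Counts were filtered (filterByExpr), scaled by TMM and tested with the quasi-likelihood F-test of edgeR 4.0.16 in R 4.3.3 with robust estimation, no covariate and Benjamini-Hochberg adjustment over 16133 genes, with calls at 0.05. The SE is the log2 fold change divided by the square root of F. Log2 CPM used a prior count of 2. DESeq2 1.42.0 (the study used a Wald test), RLE and upper-quartile scaling, library totals, other filters, the replicate block, no robust estimation, removal of acinar genes and leaving out each library were alternatives. The removal of both acinar-rich libraries, the summing of copies and the B cell marker scale were added after seeing the data. Values at or above 100 counts had 95% Wilson half-widths of at most 19.5%, and these intervals cover counting error only. Ratios were tested in scipy 1.17.1. Copies were found with BLAST+ 2.17.0 in GENCODE M21 transcripts, and promoters came from RefSeq. Scripts were tested on simulated data.

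Named genes were the 10 genes, their fixed partners, the 2 with the smallest p in each list and the 3 nearest patterns of the 3 genes with the widest range in TMM-scaled log2 CPM. Krt8, Cdx2, Vil1, Spic, Lyve1, Prox1, Reln and Flt4 come from the marker lists. The members and lists were chosen with earlier results of these data known. No batch or date is given. No pair of libraries agreed within sampling noise. The values of 1 gene of the pathway lists are not reported here.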

Additional observations from a re-analysis of the deposited data

How the results depend on the processing

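The counts of calls depended on the tool and scaling. Against 0 calls in edgeR among the 10 genes, among all genes and among the pathway lists, DESeq2 gave 1, 111 and 2, and an unadjusted p under 0.05 gave 4, 1090 and 12. Over all genes, library totals without TMM gave 8 calls. At an unadjusted p under 0.05, 417 genes were higher and 673 lower, and with upper-quartile scaling 558 and 570. The median of the 10 genes lay between 0.68 and 1.14 in all fits. It was 0.14 relative to the B cell markers, as a difference of means without TMM. Leaving out 1 library gave 1 to 4 ratios without overlap. There were 2 without 30 °C replicate 1 or 4 °C replicate 1, and 4 without 30 °C replicate 3. It gave 7 to 8 of the 10 genes without overlap, and the share of all genes is not given for these subsets. Fewer libraries separate more easily. Leaving out a 30 °C library gave 3 to 6 of the 10 genes at an unadjusted p under 0.05, beside 168 to 583 of all genes higher. Without a 4 °C library, the lone library left was assumed to vary like the other group.

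The sign turned for Ccl19 without 4 °C replicate 2 (-2.76, against up to 3.93 without another library) and without both acinar-rich libraries (-1.88). For Ltbr the log2 fold change was -0.011 with DESeq2 and with RLE scaling, -0.012 with at least 10 counts in every library, -0.015 with acinar genes removed, -0.05 without 30 °C replicate 2, -0.24 without 30 °C replicate 3, -0.21 without 4 °C replicate 2, 0.36 without 30 °C replicate 1, -0.26 without both acinar-rich libraries and -0.65 relative to the B cell markers. On that scale Tnfsf13b was -0.25. The cause was not tested.

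The replicate numbers were used as a block only as an alternative, since deviations of same-numbered libraries correlated at -0.25 for number 1 and 0.26 for number 2 and no source pairs them. The block gave 0 calls among the 10 genes, 44 calls among all genes, and -0.22 for Ltbr. At an unadjusted p under 0.05, 6 of the 10 genes were higher, beside 322 of 16133 genes.

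With 3 and 2 libraries, Ccl21a (at most 19 counts) and the gaps between groups for Lta, Ccr7 and Tnfsf13b could not be resolved at this depth.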
